A study of Mus musculus with 7 samples.

Results

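MHC class II presentation was followed through 7 mouse genes in sorted intestinal crypt cells: H2-Aa, H2-Ab1, H2-Eb1, H2-DMa, H2-DMb1, Cd74 and Ciita. The members were the gene probes of the array that carry one of these names. They were 12 probes among 41174, and all 7 genes were measured among the 17537 genes fitted. The tested cells were GFP-high cells of Dll1-EGFP-ires-CreERT2 mice, in which GFP follows the Dll1 promoter. They had been sorted at CD24 low, CD24 medium and CD24 high, with 2 arrays at each level. The reference for them was 1 array of GFP-high cells from Lgr5-EGFP-ires-CreERT2 mice, in which GFP follows the Lgr5 promoter and which the labels describe as intestinal stem cells. Every sample was hybridised together with RNA of whole small intestine on a 2-colour Agilent array. No other allele or treatment, no strain and no age are given in the sources used here, and replicates are called biological without being tied to animals. The single Lgr5 array carries no spread of its own, so its comparisons borrow the spread of the Dll1 replicates. All comparisons with Lgr5 also share that array.

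MHC class II molecules are surface heterodimers of an alpha and a beta chain that hold peptides for CD4+ T cells. In the endoplasmic reticulum they are bound by the invariant chain, which is cut down in endosomes, and the non-classical H2-DM heterodimer then exchanges its last fragment for other peptides. Transcription of these genes depends on CIITA, a co-activator that has no DNA binding of its own and docks on a complex of RFX, CREB and NF-Y proteins at the W, X and Y boxes of class II promoters. B cells, dendritic cells and activated macrophages carry class II constitutively, and intestinal epithelium can carry it too, above all after interferon-gamma. The question put to these arrays was therefore whether class II RNA stood with the Lgr5 cells or with the Dll1 fractions, and how the markers of immune cells lay on the same arrays.

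The promoter letters that this machinery reads are shown as background to the members. Whether they bear on how the members varied over the arrays was not tested. RefSeq promoter windows (GRCm38.p6, 250 bases before to 50 after the start) were at hand for 4 of the 7 members, namely H2-Aa, H2-Eb1, H2-DMb1 and H2-DMa. Capitals mark matches to the X box core AACNGATG and the Y box core TGATTGG. The presence of each motif was searched on both strands, while the capitals and the distances below come from the gene's own strand. The motifs do not overlap in the windows shown, and the Y core was set after reading class II promoters. H2-Eb1 is on the plus strand at chr17:34305758-34305817, H2-DMb1 on the plus strand at chr17:34153080-34153139 and H2-Aa on the minus strand at chr17:34287862-34287921.
H2-Eb1: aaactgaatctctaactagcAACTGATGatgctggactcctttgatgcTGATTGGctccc
H2-DMb1: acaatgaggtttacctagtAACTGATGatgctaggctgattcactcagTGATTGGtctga
H2-Aa: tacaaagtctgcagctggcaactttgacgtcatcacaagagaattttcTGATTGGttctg
The X core began 89 bases before the start in H2-Eb1 and 92 in H2-DMb1, and the Y core began 61, 63 and 50 bases before the start in H2-Eb1, H2-DMb1 and H2-Aa. Neither H2-DMa window held these letters. Over 32851 RefSeq promoter windows of the same length, 2.32% held the X core, 7.82% the Y core and 0.186% both. A match describes letters in a window and no bound factor.

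Class II RNA was present in all 4 sorted populations. 6 of the 7 members stood well above background in the sample channel on all 7 arrays, and Ciita did so on 6, the exception being CD24 high replicate 2. The mean log2 ratio of the 7 members to whole intestine was −0.57 and −1.23 on the CD24 low arrays, −1.23 and −1.56 on the CD24 medium arrays, −1.24 and −1.22 on the CD24 high arrays, and −0.29 on the Lgr5 array. The Lgr5 array was the highest of the 7 in 4 members, H2-Aa, H2-Eb1, H2-DMa and Ciita, and 25.6% of all genes had the Lgr5 array above all 6 Dll1 arrays. It came second behind CD24 low replicate 1 in H2-DMb1 and Cd74, and behind 3 Dll1 arrays in H2-Ab1. In sorted bulk RNA, fewer cells that express a gene and less RNA per cell cannot be told apart.

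**Figure D1:**
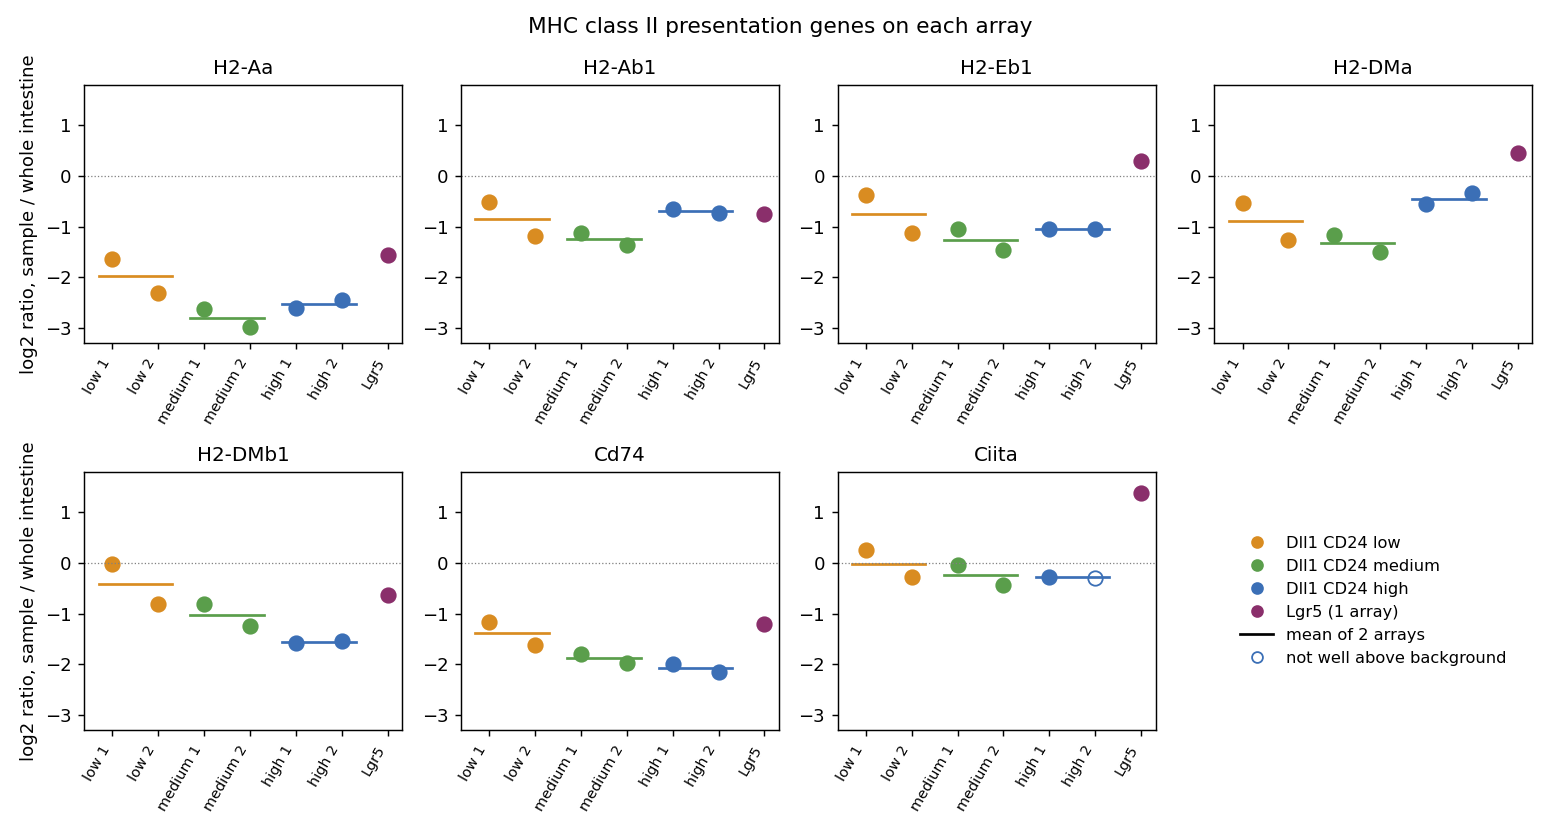
Log2 ratio of the sample to whole intestine for the 7 members on each array, with 1 point per array and a line for the mean of 2 replicates. The Lgr5 point lies above all 6 Dll1 points in H2-Aa, H2-Eb1, H2-DMa and Ciita, and CD24 low replicate 1 lies above replicate 2 in every panel.

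Against Lgr5, the mean of the 3 Dll1 groups was lower for Ciita, H2-DMa and H2-Eb1, the class II co-activator, the alpha chain of the peptide exchange factor and a surface beta chain. These were 3 of 7 members lower and 0 higher (limma across all genes, Benjamini-Hochberg adjusted p below 0.05), against 13.3% of all genes called lower and 17.5% called higher in this comparison. All 7 differences were negative, with a median of −0.89 on the log2 scale, while the median over all genes was 0.13. Taken by fraction, 2 of 7 members were lower and 0 higher in CD24 low, where 9.78% of all genes were called lower and 11.9% higher. The count was 4 lower and 0 higher in CD24 medium, with 8.5% of all genes lower and 10.3% higher, and 4 lower and 0 higher in CD24 high, with 14.6% lower and 21.2% higher. With the slide as a term in the fit, the counts were 0, 2 and 1 for the 3 fractions and 1, Ciita, for the Dll1 mean. On slide 1 alone, the CD24 medium and CD24 high arrays differed from the Lgr5 array with the same sign as in the full fit for all 7 members. These arrays are also part of the full fit, so the shared sign is no independent check. Both CD24 low arrays were on slide 2, apart from the Lgr5 array. Single arrays decided part of these counts: CD24 medium had 0 of 7 without its replicate 2, CD24 high had 1 of 7 without either of its replicates, 2 of 7 without either CD24 medium array and 6 of 7 without either CD24 low array, and CD24 low had 1 of 7 without its replicate 2 or either CD24 high array. For the Dll1 mean the count was 3 to 5, with 5 without CD24 low replicate 1.

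**Figure D2:**
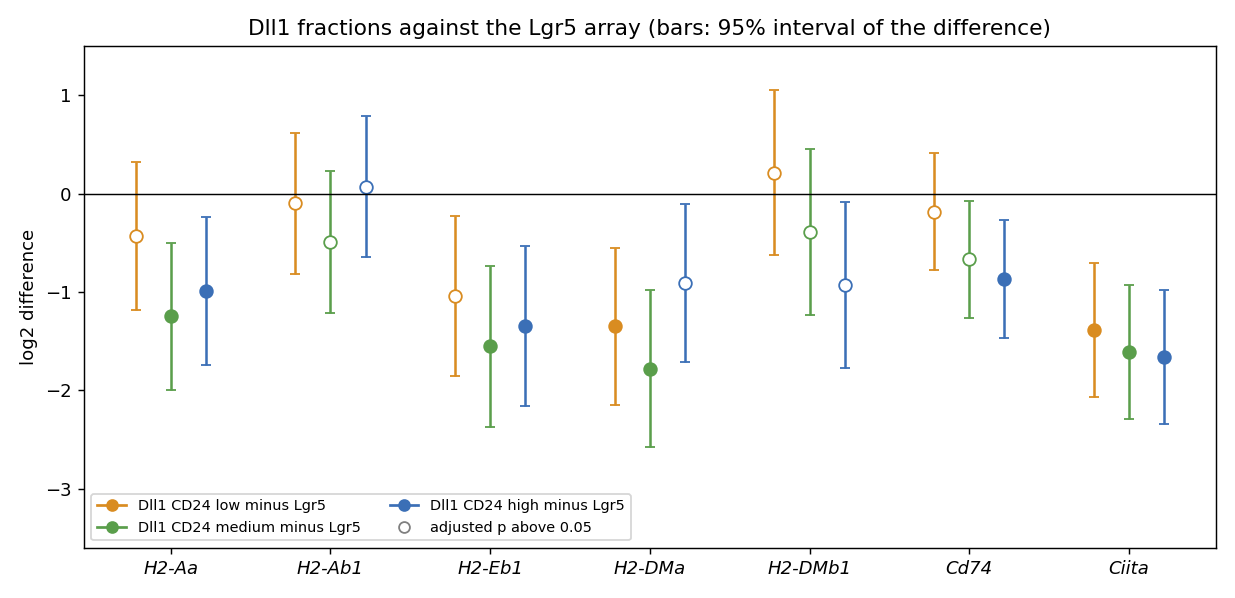
Log2 difference of each Dll1 fraction from the Lgr5 array for the 7 members, with the 95% interval from the fit. Filled points passed an adjusted p of 0.05. Ciita was called in all 3 fractions and H2-Ab1 in none.

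Ciita, the co-activator that sets class II transcription, was the only member called lower than Lgr5 in all 3 Dll1 fractions. Its log2 ratio to intestine was 0.25 and −0.28 in CD24 low, −0.04 and −0.43 in CD24 medium, −0.27 and −0.30 in CD24 high, and 1.37 in Lgr5 cells. The groups of Dll1 cells overlapped one another, and the Lgr5 value lay apart above them. The sample-channel signal of its probe was 813.1 and 446.6 in CD24 low, 651.6 and 419.4 in CD24 medium, 324.0 and 164.8 in CD24 high, and 2322 in Lgr5 cells. Ciita was 2.62-fold lower than Lgr5 in CD24 low (adjusted p = 0.019), 3.05-fold lower in CD24 medium (adjusted p = 0.013) and 3.15-fold lower in CD24 high (adjusted p = 0.0057), the last with 1 of its 2 arrays not well above background. The Dll1 mean differed from Lgr5 by −1.55 ± 0.25 (SE; adjusted p = 0.0062), and by −1.41 with the slide as a term (adjusted p = 0.027). The CD24 medium call ended without CD24 medium replicate 2 (adjusted p = 0.058), and on Agilent's processed signals the Dll1 mean stood at −2.24 (adjusted p = 0.028) with the CD24 low and CD24 medium calls lost. Its difference for the Dll1 mean was larger in size than that of the other members in the main fit, but on the sample channel alone it was −1.39 (adjusted p = 0.012) beside −1.49 for H2-Eb1 (adjusted p = 0.0096). The probe lies on chromosome 16 at 10526303 to 10526362 on the plus strand (mm9, from the array files).

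H2-Eb1, a beta chain of the surface heterodimer, was lower than Lgr5 in CD24 medium and CD24 high. Its log2 ratio was −0.37 and −1.12 in CD24 low, −1.05 and −1.46 in CD24 medium, −1.04 and −1.05 in CD24 high, and 0.30 in Lgr5 cells, the only array above whole intestine. It was 2.94-fold lower than Lgr5 in CD24 medium (adjusted p = 0.025) and 2.54-fold lower in CD24 high (adjusted p = 0.023). In CD24 low the difference was −1.04 ± 0.34 and did not pass (adjusted p = 0.072). For the Dll1 mean it was −1.31 ± 0.30 (adjusted p = 0.019), and −1.18 with the slide as a term (adjusted p = 0.071). The CD24 medium call ended without its replicate 2 (adjusted p = 0.099), the CD24 high call ended without either of its replicates (adjusted p = 0.066 and 0.071), and CD24 low passed without its replicate 1 (−1.42, adjusted p = 0.021). Its single probe covers 462 bases of chromosome 17 with 60 letters, at 34452050 to 34452511 on the plus strand (mm9), so it spans a splice junction and reads spliced RNA.
H2-Eb1 probe A_51_P393226: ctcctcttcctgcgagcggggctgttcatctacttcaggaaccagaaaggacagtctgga

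H2-Aa, an alpha chain of the surface heterodimer, was lower than Lgr5 in CD24 medium and CD24 high by the main fit. Its log2 ratio was −1.64 and −2.31 in CD24 low, −2.63 and −2.97 in CD24 medium, −2.61 and −2.45 in CD24 high, and −1.55 in Lgr5 cells. The CD24 low replicates lay above all CD24 medium and CD24 high arrays, and replicate 1 was within 0.1 of the Lgr5 array. Of all genes, 22.3% had both CD24 low arrays above both CD24 medium arrays and 31.6% above both CD24 high arrays. H2-Aa was 2.38-fold lower than Lgr5 in CD24 medium (adjusted p = 0.037) and 1.98-fold lower in CD24 high (adjusted p = 0.049). Both calls ended with the slide as a term (adjusted p = 0.08 and 0.1) and when any 1 of the 4 CD24 medium and CD24 high arrays was left out (adjusted p = 0.061 to 0.14). The Dll1 mean differed by −0.89 ± 0.28 (adjusted p = 0.051) and passed without either CD24 low array (adjusted p = 0.016 and 0.036), and a second probe, at 34420627 to 34420686 of chromosome 17 (mm9, minus strand), gave −0.83 (adjusted p = 0.066).

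H2-Ab1, the beta chain that pairs with H2-Aa, did not differ from Lgr5 beyond its error on the probe used, yet its 4 probes disagreed in CD24 high. On the brightest probe, at 34406059 to 34406118 of chromosome 17 on the plus strand (mm9), the log2 ratio was −0.51 and −1.19 in CD24 low, −1.13 and −1.36 in CD24 medium, −0.64 and −0.73 in CD24 high, and −0.75 in Lgr5 cells. The Dll1 mean differed from Lgr5 by −0.17 ± 0.27 (adjusted p = 0.65; 95% interval −0.81 to 0.46). Probe A_51_P215237, printed in 10 spots at 34404388 to 34404447, read 0.10 and −0.76 in CD24 low, −0.74 and −1.14 in CD24 medium, −1.66 and −1.66 in CD24 high, and −0.10 in Lgr5 cells. Its replicate spots had an SD of 0.01 to 0.04 within an array, which is below the distance between the probes on the CD24 high arrays. With every probe fitted as a row of its own, CD24 high minus Lgr5 was 0.07 on the brightest probe (adjusted p = 0.89), −1.56 on A_51_P215237 (adjusted p = 0.017), −1.06 on A_51_P215242 at 34401723 to 34401782 (adjusted p = 0.049) and −0.33 on A_52_P570717, which the array files leave unmapped (adjusted p = 0.51). All 4 probes were well above background on all arrays, and the cause of the disagreement was not tested.

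The letters of 3 H2-Ab1 probes are shown because the answer for this gene depends on them. A_51_P215242 and A_52_P570717 share a stretch of 31 bases in which 29 match, and capitals mark the 2 bases that differ.
A_51_P215237: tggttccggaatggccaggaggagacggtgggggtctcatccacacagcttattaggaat
A_51_P215242: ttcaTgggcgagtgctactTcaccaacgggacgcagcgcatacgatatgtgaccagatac
A_52_P570717: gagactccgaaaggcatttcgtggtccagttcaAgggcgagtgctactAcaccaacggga
Class II beta chains differ between mouse strains, and the strain of these mice is not given in the sources used here.

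**Figure D3:**
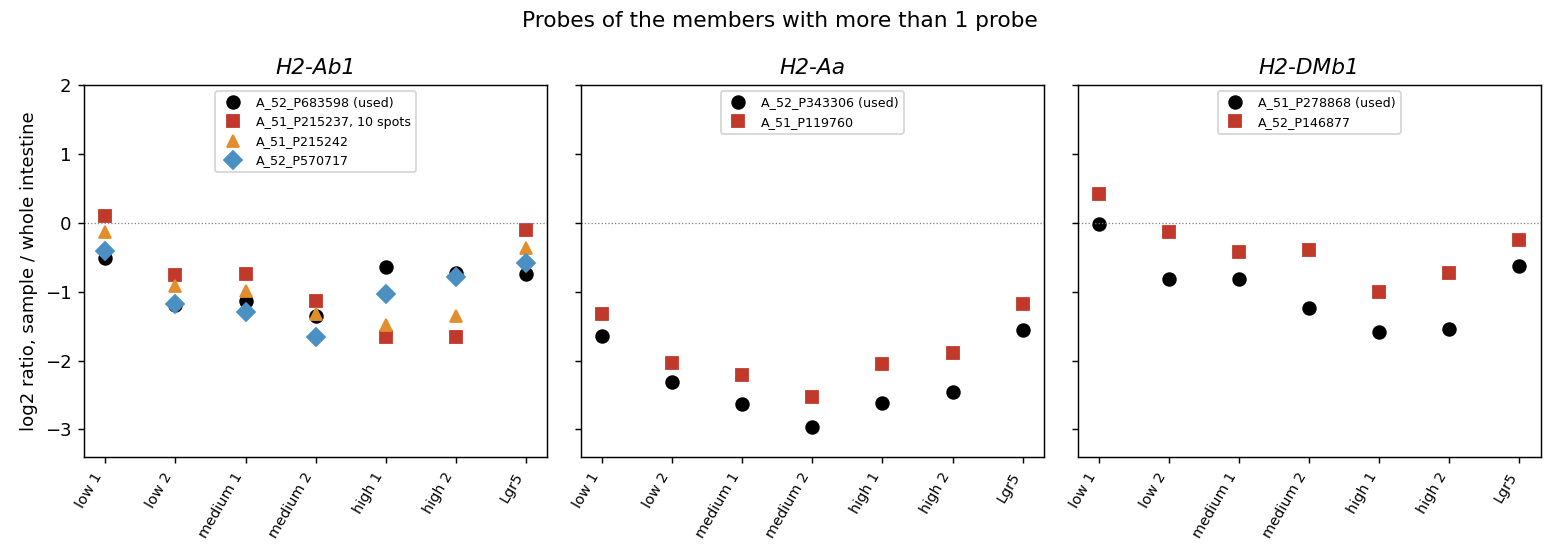
Log2 ratio to whole intestine on each array for every probe of H2-Ab1, H2-Aa and H2-DMb1, with 1 marker per probe. The 4 H2-Ab1 probes spread from −1.66 to −0.64 in CD24 high replicate 1, from −0.51 to 0.10 in CD24 low replicate 1 and from −0.75 to −0.10 on the Lgr5 array, while the probe pairs of H2-Aa and H2-DMb1 keep their order on every array.

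Cd74, the invariant chain that occupies the class II groove until the endosome, was lower in CD24 high than in Lgr5 cells. Its log2 ratio was −1.16 and −1.62 in CD24 low, −1.79 and −1.97 in CD24 medium, −2.0 and −2.16 in CD24 high, and −1.21 in Lgr5 cells. The 3 CD24 levels did not overlap and descended from low to high, and CD24 low replicate 1 equalled the Lgr5 array to within 0.1. Both CD24 low arrays lay above both CD24 high arrays in 31.6% of all genes, and above both CD24 medium arrays in 22.3%. The step from CD24 medium to CD24 high was small, with a difference of 0.20 ± 0.20 (adjusted p = 0.53). The difference from Lgr5 was −0.19 ± 0.25 in CD24 low (adjusted p = 0.62), −0.67 ± 0.25 in CD24 medium (adjusted p = 0.11) and −0.87 ± 0.25 in CD24 high (adjusted p = 0.035), which was 1.83-fold. That call ended on Agilent's processed signals and the series matrix, with the slide as a term and without any 1 of the CD24 medium and CD24 high arrays. On the sample channel alone, without the intestine channel, the Dll1 mean stood at −1.36 and passed (adjusted p = 0.0031), against −0.58 in the main fit (adjusted p = 0.091).

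H2-DMa and H2-DMb1 are the chains of the peptide exchange factor. H2-DMa, the alpha chain, read −0.53 and −1.26 in CD24 low, −1.16 and −1.50 in CD24 medium, −0.56 and −0.34 in CD24 high, and 0.45 in Lgr5 cells, which was above every Dll1 array. It was 2.55-fold lower than Lgr5 in CD24 low (adjusted p = 0.034) and 3.43-fold lower in CD24 medium (adjusted p = 0.015), and in CD24 high the difference of −0.91 ± 0.33 did not pass (adjusted p = 0.078). The CD24 low call ended in 10 of the alternatives, among them the slide as a term, the replicate block, and the fits without CD24 low replicate 2 (adjusted p = 0.068) or either CD24 high array (adjusted p = 0.054). The CD24 medium call ended without CD24 medium replicate 2 (adjusted p = 0.067), and CD24 high passed without either CD24 low array (adjusted p = 0.029). For the Dll1 mean H2-DMa differed by −1.35 ± 0.29 (adjusted p = 0.017), and by −1.31 with the slide as a term (adjusted p = 0.059).

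H2-DMb1 read −0.02 and −0.81 in CD24 low, −0.81 and −1.24 in CD24 medium, −1.58 and −1.54 in CD24 high, and −0.63 in Lgr5 cells. CD24 low replicate 1 was above Lgr5, replicate 2 was below it, and both CD24 high arrays were the lowest. The Dll1 mean differed from Lgr5 by −0.37 ± 0.31 (adjusted p = 0.40; 95% interval −1.11 to 0.37). A second H2-DMb1 probe gave −0.12 (adjusted p = 0.72), and its annotation lists the RefSeq transcripts of both H2-DMb1 and its neighbour H2-DMb2, so it may read either.
H2-DMb1 probe A_52_P146877: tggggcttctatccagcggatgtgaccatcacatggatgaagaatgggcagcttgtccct

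Between CD24 levels, 1 class II difference passed, that of H2-DMb1, which was 2.2-fold higher in CD24 low than in CD24 high (log2 difference 1.14 ± 0.29, adjusted p = 0.039). That was 1 of 7 members higher, against 6.84% of all genes called higher in this comparison, and the second H2-DMb1 probe gave 1.02 (adjusted p = 0.026). The call ended in 9 of the alternatives: offset 16, no filter on dim probes, the slide as a term, the compared groups alone, and without any 1 of 5 arrays, namely CD24 low replicate 1 and the 4 arrays of CD24 medium and CD24 high. Cd74 followed at 0.69 ± 0.20 (adjusted p = 0.064), H2-Aa at 0.55 ± 0.26 (adjusted p = 0.18) and H2-DMa at −0.44 ± 0.27 (adjusted p = 0.30). Both CD24 low arrays lay above both CD24 high arrays in 3 members, H2-Aa, H2-DMb1 and Cd74, and 31.6% of all genes did so. The 10-spot probe of H2-Ab1 differed by 1.33 between CD24 low and CD24 high (adjusted p = 0.028), while the brightest probe differed by −0.17 (adjusted p = 0.67).

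CD24 low against CD24 medium gave 0 of 7 calls with limma, and 2 at an unadjusted p below 0.05, where 0.114% of all genes were called. All 7 differences were positive, between 0.22 in Ciita and 0.82 in H2-Aa with a median of 0.49, and the arrays of the 2 levels did not overlap in H2-Aa and Cd74, as in 22.3% of all genes. CD24 medium against CD24 high also gave 0 of 7 calls with limma, and 1 at an unadjusted p below 0.05, where 20.8% of all genes were called. The differences ran from −0.87 ± 0.27 in H2-DMa (adjusted p = 0.068) to 0.54 ± 0.29 in H2-DMb1 (adjusted p = 0.23). Within slide 1 they ran from −0.59 to 0.77 and within slide 2 from −1.15 to 0.30, in the same 2 genes. The H2-DMa difference passed (adjusted p = 0.027) when the fit lacked either or both CD24 low arrays, and also with the compared groups alone and with the filter on all 7 arrays.

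The replicates of CD24 low stood apart in the class II genes. Replicate 1 was above replicate 2 in 7 of 7 members, by 0.46 to 0.79 with a median of 0.68, and only 2.63% of all genes had a larger gap in that direction than this median. In CD24 medium replicate 1 was above replicate 2 in 7 of 7 members too, with a median of 0.34, and 9.12% of all genes had a larger gap. In CD24 high replicate 1 was above in 4 of 7, with a median of 0.01. Beside the class II gap in CD24 low, the mean log2 ratio of 12 villus enterocyte markers was −3.05 in replicate 1 and −3.70 in replicate 2. Fabp1 and Apoa4, lipid-carrying proteins of enterocytes, were named after their values were seen and had the widest gaps of that list. They read −4.18 and −2.37 in replicate 1 and −6.46 and −4.27 in replicate 2. Anpep and Slc5a1 of the same list went the other way, at −1.6 and −2.06 in replicate 1 and −0.63 and −1.48 in replicate 2. The summed sample-channel signal of the 12 markers was 117857 in replicate 1 and 118451 in replicate 2. The pan-leukocyte markers read −1.99 and −1.95, those of B and plasma cells −1.1 and −0.98, those of T and NK cells −1.55 and −1.71, and those of macrophages and dendritic cells −0.92 and −0.97, each with replicate 1 first. The immune lists thus differed between these replicates by at most 0.15, while class II differed by 0.66 on the same scale. The part of enterocyte RNA in the class II gap was not tested.

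The members varied together unevenly over the 7 arrays, which share the 1 Lgr5 array and the CD24 low gap. Pearson's r over the 21 pairs ran from 0.146 to 0.963 with a median of 0.746. The highest was that of H2-Eb1 with Ciita and the lowest that of H2-DMa with H2-DMb1. The 5 genes outside the members most like their mean over the 7 arrays, among 8325 genes with enough signal and range, were Nudt2 (r = 0.9508), Cenpk (0.9452), Nup160 (0.945), Sult1b1 (0.9443) and Rbl1 (0.9429). Their Dll1 mean differed from Lgr5 by between −0.83 in Nudt2 and −1.56 in Cenpk.

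The mean log2 ratios of the 4 immune marker lists were lowest on the Lgr5 array, although single markers went the other way, among them Cd14, which was highest there. Ptprc, the pan-leukocyte phosphatase CD45, was well above background on 0 of 7 arrays, and so were Cd53, Cd48 and Arhgdib, which left 6 of 10 pan-leukocyte markers measured. Adgre1 of macrophages and Cd209a of dendritic cells were well above background on 0 arrays too, and Clec9a of dendritic cells was not found among the array's gene names. The mean log2 ratio of the 6 pan-leukocyte markers was −1.99 and −1.95 in CD24 low, −2.41 and −2.19 in CD24 medium, −1.56 and −1.24 in CD24 high, and −2.68 in Lgr5 cells. The summed sample-channel signal of the same 6 genes was 2625 and 3714 in CD24 low, 2637 and 3087 in CD24 medium, 3576 and 3851 in CD24 high, and 2578 in Lgr5 cells. For the 7 class II genes the sum was 97245 and 58118 in CD24 low, 62229 and 51859 in CD24 medium, 46667 and 43803 in CD24 high, and 138407 in Lgr5 cells. The Lgr5 array was thus the highest in the class II sum. It was also the lowest in the pan-leukocyte sum, but close to CD24 low replicate 1 and CD24 medium replicate 1. The other immune sums did not all share this order. That of B and plasma cell markers was lowest on the Lgr5 array (5501). That of T and NK cell markers was 5013 there, above the 4065 and 4737 of CD24 medium.

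Of the pan-leukocyte markers, 4 of 6 were higher in the Dll1 mean than in Lgr5 and 0 lower, with a median of 0.76. Over all genes 17.5% were called higher in that comparison. Taken by fraction, 3 of 6 were higher than Lgr5 in CD24 low, 0 of 6 in CD24 medium and 6 of 6 in CD24 high. The shares of all genes called higher there were 11.9%, 10.3% and 21.2%. Cd52, a surface glycoprotein of lymphocytes, rose by 0.92 (adjusted p = 0.0092) and Tyrobp, the DAP12 adaptor of myeloid and NK cells, by 0.86 (adjusted p = 0.017). B and plasma cell markers had 2 of 9 higher and 0 lower, with a median of 0.68. In CD24 low, CD24 medium and CD24 high, 1, 1 and 5 of the 9 were higher than in Lgr5. The J chain Igj rose by 1.70 (adjusted p = 0.012) and the B cell co-activator Pou2af1 by 1.18 (adjusted p = 0.015), while Cd79a, a chain of the B cell receptor, differed by 0.14 (adjusted p = 0.55). T and NK cell markers had 4 of 12 higher and 0 lower, with a median of 0.70. By fraction the count was 1 of 12 higher in CD24 low, 0 in CD24 medium and 9 in CD24 high. The chemokine Ccl5 rose by 0.93 (adjusted p = 0.017), and Cd3e, a chain of the T cell receptor complex, differed by 0.31 (adjusted p = 0.33).

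Macrophage and dendritic cell markers had 5 of 15 higher and 1 lower, with a median of 0.59. Over all genes 17.5% were called higher and 13.3% lower, with a median of 0.13. By fraction the list had 1 of 15 higher and 0 lower in CD24 low. It had 0 higher and 1 lower in CD24 medium, and 8 higher and 1 lower in CD24 high. Itgax, the integrin CD11c, rose by 0.96 (adjusted p = 0.027) and the complement genes C1qc, C1qa and C1qb by 1.08, 0.80 and 0.73 (adjusted p = 0.0094, 0.036 and 0.024), whereas Csf1r, the macrophage growth factor receptor, differed by 0.59 (adjusted p = 0.11). The lower gene was Cd14, the lipopolysaccharide co-receptor, at −1.27 (adjusted p = 0.0049). It read −0.59 and −0.73 in CD24 low, −1.27 and −1.49 in CD24 medium, −2.0 and −1.72 in CD24 high, and −0.03 in Lgr5 cells. The summed signal of this list was 6447 and 6389 in CD24 low, 5450 and 5171 in CD24 medium, 100515 and 8712 in CD24 high, and 9196 in Lgr5 cells. The first CD24 high sum came almost wholly from 1 probe, Zbtb46, with a signal of 95130 there against 4080 in CD24 high replicate 2 and 261.3 in Lgr5 cells, and the Lgr5 sum included 5014 from Cd14.

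The immune lists stood highest in CD24 high, the dimmest arrays of the series, where 42.5 to 44.4% of gene spots were well above background against 52.8 to 60.5% elsewhere. On CD24 high arrays 8 and 6 of 15 T and NK cell markers stood well above background, against 11 to 13 of 15 on the other Dll1 arrays and 12 of 15 on the Lgr5 array. On the sample channel alone the medians of the 4 immune lists for the Dll1 mean against Lgr5 shrank to between 0.03 and 0.20 with 0 genes higher and 3 lower, namely Cd79b of B cells at −0.80 (adjusted p = 0.011), Lck of T cells at −0.66 (adjusted p = 0.029) and Cd14 at −1.45 (adjusted p = 0.0035). The same 3 genes were lower on Agilent's processed signals, where 1 of 6, 2 of 9, 0 of 12 and 3 of 15 immune markers were higher. Over all genes, 2773 were called higher and 2824 lower on that scale. The class II median on the sample channel was −1.25 with 5 of 7 lower, while over all genes 3069 were called lower and 1994 higher. With the slide as a term the immune lists had 1 of 6, 2 of 9, 0 of 12 and 1 of 15 genes higher and medians of 0.42 to 0.62. Cd14 remained lower in that fit (adjusted p = 0.02), for which the share of all genes called is not given here. The 4 immune medians for Dll1 minus Lgr5 were above 0 and the class II median below 0 in each of these fits. On the sample channel alone, however, the smallest immune median, 0.03, lay next to the all-gene median of 0.01. Its sign therefore says little, and single immune markers were called lower in the Dll1 mean. The part of immune cells in the class II levels of any fraction was not tested.

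**Figure D4:**
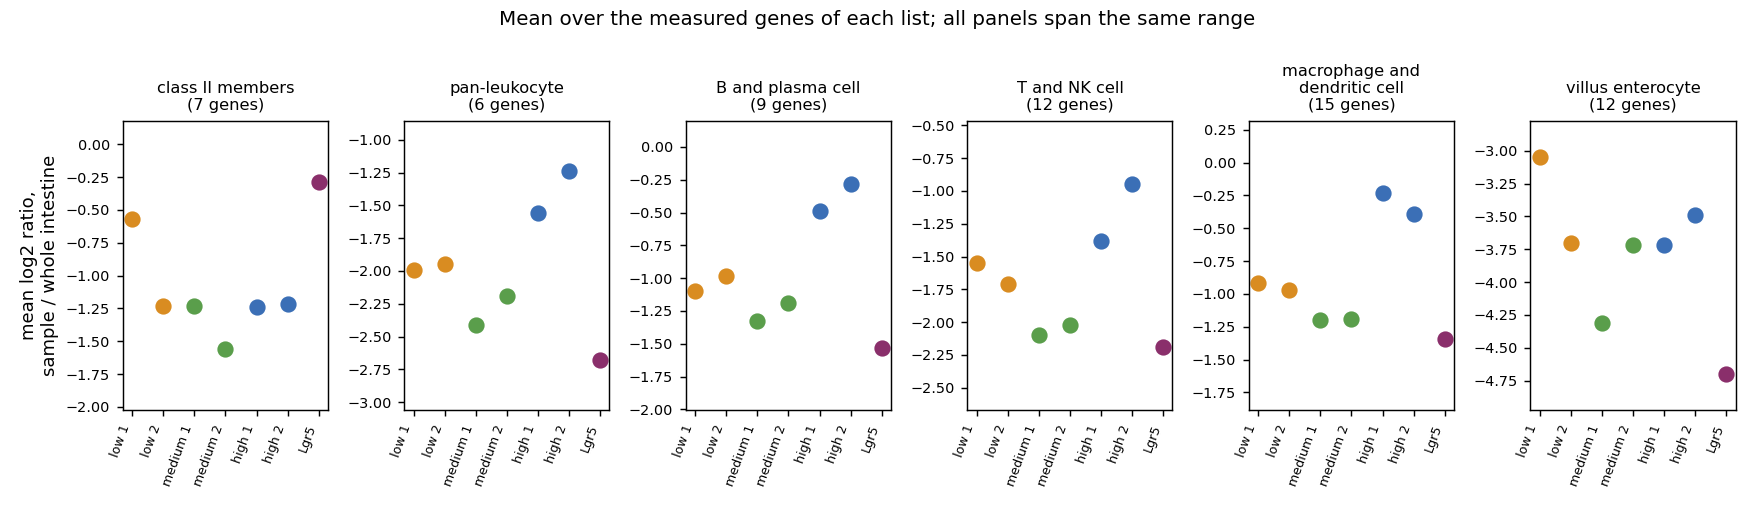
Mean log2 ratio to whole intestine over the measured genes of 6 lists, with 1 point per array, from CD24 low at the left to Lgr5 at the right. The class II mean is highest on the Lgr5 array (−0.29), where the means of the 4 immune lists and of the enterocyte markers are lowest.

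Other non-immune markers also separated the Lgr5 array from the Dll1 arrays. Epcam, the epithelial adhesion molecule, differed by −0.03 between the Dll1 mean and Lgr5 (adjusted p = 0.93). Of 10 epithelial markers 4 were higher in the Dll1 mean and 0 lower, where 17.5% of all genes were called higher, led by the keratins Krt18 at 2.43 (adjusted p = 0.00053) and Krt8 at 1.99 (adjusted p = 0.00096). Of 12 villus enterocyte markers 5 were higher and 0 lower with a median of 1.05, led by the disaccharidase Sis at 1.88 (adjusted p = 0.012). Of 8 stromal and endothelial markers 5 were higher and 0 lower with a median of 1.08, led by Vim, an intermediate filament of mesenchymal cells, at 3.0 (adjusted p = 0.04). The Vim call ended on processed signals (adjusted p = 0.09), on the sample channel alone (adjusted p = 0.19) and with the slide as a term (adjusted p = 0.12). On the sample channel alone 1 of 12 enterocyte markers was higher with a median of 0.37, and 1 of 8 stromal and endothelial markers with a median of 0.17.

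Among the class II processing machinery, Ctss stood lowest in the Dll1 mean against Lgr5. Of 16 measured accessory genes 3 were lower in the Dll1 mean than in Lgr5 and 4 higher, with a median of 0.34, where 13.3% of all genes were called lower and 17.5% higher, so neither count lay far from the share of all genes. On the sample channel alone 4 were lower and 2 higher, with a median of 0.02. Ctss, cathepsin S, which cuts the invariant chain, read −3.75 and −3.62 in CD24 low, −4.43 and −4.11 in CD24 medium, −5.14 and −4.74 in CD24 high, and −2.42 in Lgr5 cells. All Dll1 arrays lay more than 1 log2 unit below Lgr5, and the difference was −1.88 (adjusted p = 0.0022), larger in size than that of any member, and −2.12 with the slide as a term (adjusted p = 0.0037). Ctsb, another lysosomal cathepsin, and Nfya, a subunit of the Y box factor NF-Y, were lower at −0.68 (adjusted p = 0.019) and −0.90 (adjusted p = 0.03), and both calls ended with the slide as a term (adjusted p = 0.056 and 0.098). The tetraspanins Cd82 and Cd63, which sit in class II compartments, were higher by 1.53 (adjusted p = 0.0027) and 1.35 (adjusted p = 0.0033). Rfx5, the X box factor, was well above background on 0 arrays, and so were H2-DMb2, H2-Ob, H2-Eb2 and March1.

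The endosomal proteases Lgmn and Ctsl were lower in CD24 low than in CD24 high cells. Between CD24 low and CD24 high, 7 of 16 accessory genes were lower in CD24 low and 2 higher, where 11.2% of all genes were called lower. Lgmn, legumain, a protease of antigens and invariant chain, was lower in CD24 low at −3.53 (adjusted p = 0.0007), Ctsl, cathepsin L, at −2.80 (adjusted p = 0.0022) and Cd63 at −1.72 (adjusted p = 0.0013). The 2 genes higher in CD24 low were Ctss at 1.25 (adjusted p = 0.0088) and Ifi30, the lysosomal thiol reductase GILT, at 1.21 (adjusted p = 0.0049).

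The class I heavy chains H2-D1 and H2-K1 were higher in the Dll1 mean than in Lgr5. Of 16 class I genes 5 were higher and 1 lower, with a median of 0.39, where 17.5% of all genes were called higher and 13.3% lower. H2-D1, a classical class I heavy chain, read 0.64 and 0.69 in CD24 low, −0.26 and 0.15 in CD24 medium, 0.22 and 0.64 in CD24 high, and −2.06 in Lgr5 cells. The Lgr5 array lay far below every Dll1 array, with a difference of 2.41 (adjusted p = 0.0012), and H2-K1, another heavy chain, gave 1.60 (adjusted p = 0.0017). The loading chaperones Pdia3 and Calr were higher by 1.63 and 1.53 (adjusted p = 0.011 and 0.026), B2m, the class I light chain, differed by 0.24 (adjusted p = 0.51), and Psmb9, an immunoproteasome subunit, was lower at −0.70 (adjusted p = 0.029). On the sample channel alone 4 class I genes were higher and 5 lower, with H2-D1 at 1.92 (adjusted p = 0.0038) and H2-K1 at 1.04 (adjusted p = 0.0073). Since class I heavy chains are a family of close sequences, their probes may read more than 1 gene.

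**Figure D5:**
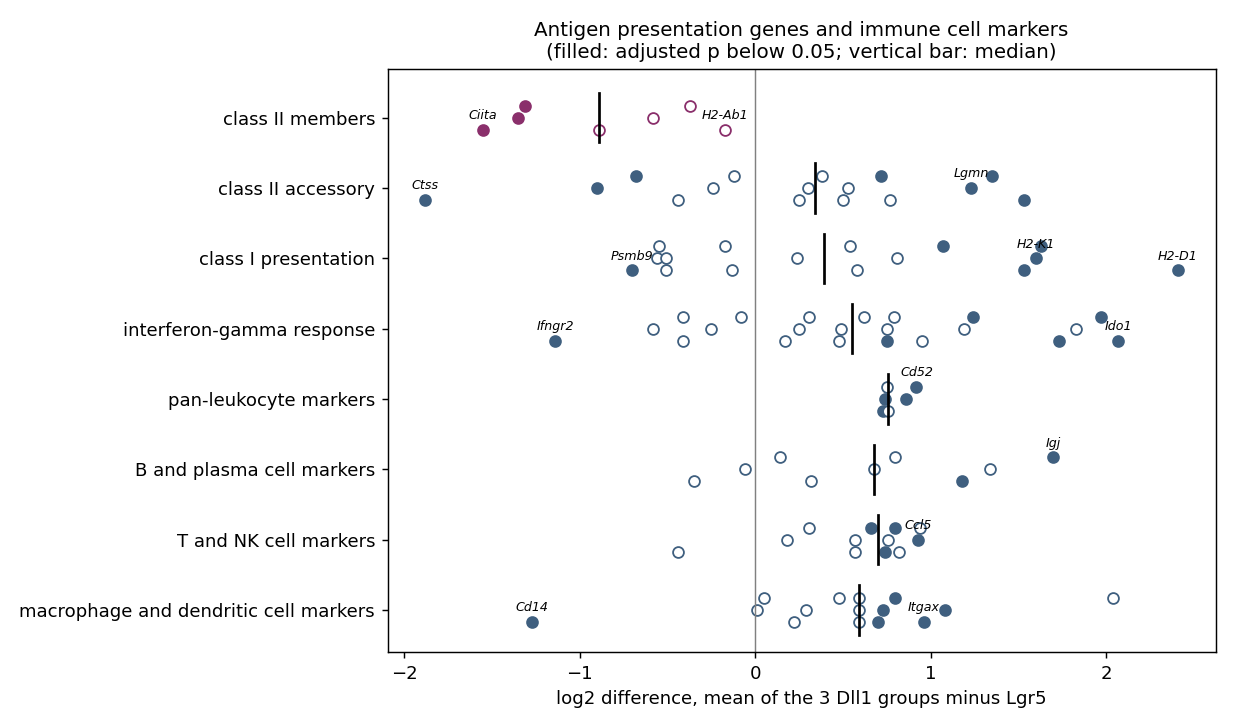
Log2 difference of the Dll1 mean from Lgr5 for every measured gene of 8 lists, with 1 point per gene, filled where the adjusted p was below 0.05, and a bar at the median. The class II members lie left of 0 with a median of −0.89, and the medians of the other 7 lists lie right of 0.

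Interferon-gamma response genes had 5 of 22 higher in the Dll1 mean and 1 lower, with a median of 0.56, where 17.5% of all genes were called higher and 13.3% lower. The balance depended on the scale, with 4 higher and 3 lower on processed signals and 3 higher and 4 lower on the sample channel alone. Ido1, the tryptophan-degrading enzyme, rose by 2.07, with 3.23 in CD24 low, 0.94 in CD24 medium and 2.04 in CD24 high. It had no value on CD24 low replicate 1, so its CD24 low difference rests on 1 array. The signal transducer Stat3 rose by 1.97 (adjusted p = 0.00097). The lower gene was Ifngr2, a chain of the interferon-gamma receptor, which read −1.03 and −1.17 in CD24 low, −1.51 and −1.49 in CD24 medium, −1.98 and −2.18 in CD24 high, and −0.42 in Lgr5 cells, a difference of −1.14 (adjusted p = 0.0049), which passed with the slide as a term too (−1.08, adjusted p = 0.023). Of 8 co-stimulation genes 4 were measured and 0 of them passed for the Dll1 mean against Lgr5. By fraction 0, 1 and 1 of the 4 were higher than Lgr5 in CD24 low, CD24 medium and CD24 high. Over all genes the shares called higher there were 11.9%, 10.3% and 21.2%. Cd83 was higher in CD24 high than in Lgr5 by 2.08 (adjusted p = 0.0084). It was lower in CD24 low than in CD24 high at −2.37 (adjusted p = 0.0047). Cd80, Cd86, Cd274 and Pdcd1lg2, the B7 ligands of T cells, were well above background on 0 arrays.

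Some inducible class I and interferon genes were also higher in CD24 low than in CD24 high, as H2-DMb1 was. Of 16 class I genes 6 were higher in CD24 low and 0 lower, where 6.84% of all genes were called higher and 11.2% lower, among them the immunoproteasome subunits Psmb8 at 1.68 (adjusted p = 0.003) and Psmb9 at 1.66 (adjusted p = 0.0014). Of 22 interferon-gamma response genes 5 were higher and 0 lower, and 9 of the 22 had a negative difference, with a median of 0.42 over the list. The calls were led by the inducible GTPases Tgtp1 at 1.94 (adjusted p = 0.00083) and Igtp at 1.26 (adjusted p = 0.026). The pan-leukocyte, B and plasma cell, and T and NK cell lists had 0 genes higher in CD24 low, and 2 of 6, 3 of 9 and 2 of 12 lower. The macrophage and dendritic cell list had 1 higher, Cd14 at 1.20 (adjusted p = 0.0062), and 3 lower.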

How the data were processed

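RNA of 7 sorted samples was labelled with Cy3 and whole small intestine RNA with Cy5 on Agilent 4X44K arrays, per the labels, without dye swaps. The authors deposited scanner files with the signal and background intensity of each spot, written by Agilent Feature Extraction 10.5.1.1 per the file headers, and with a log10 ratio. The deposited series matrix holds the same log10 ratios with the sign turned, to within 5e-06, and thus gives sample over intestine. Its median over gene spots was 0 on 6 arrays and −0.0185 on CD24 high replicate 2.

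From these, mean signals were background corrected by normexp with an offset of 50 and normalised within each array by loess (span 0.3) in limma 3.58.1 under R 4.3.3 with version 1.17.8 of data.table. Outlier spots of the sample channel were left out. Log2 ratios of sample over intestine were computed here from the deposited intensity values, and no absolute amount of RNA follows from them. Probes well above background in the sample channel on at least 2 of 7 arrays were kept (24495), and the brightest probe stood for each of 17537 genes, of which 17481 were tested against Lgr5. No spot was saturated (0 of 43379 gene spots on each array). The median sample-channel signal was 77.6 to 107.5, and the number of arrays limits the precision.

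One linear model with 1 mean per group covered all 7 arrays (3 residual and 3.55 prior degrees of freedom), and p-values were adjusted over all genes (Benjamini-Hochberg, 0.05). Slides, read from the file headers, split the arrays into Lgr5, CD24 medium 1 and CD24 high 1 on slide 1 and the rest on slide 2. Replicate numbers are not said to mark a shared animal, batch or day. The members, the gene lists and the alternatives were chosen with earlier results of these data known. All members were named with all their probes. From each list the largest differences past the threshold were named, up to 4 against Lgr5 and up to 4 between CD24 levels, and Ptprc, Cd79a, Cd3e, Itgax, Csf1r, Epcam, Rfx5 and B2m were always named; 1 further gene of that rule is not reported here. Genes most like the members were ranked by Pearson's r among those above background on at least 4 arrays and with a log2 range of at least 1. Probe coordinates are those of the array files (mm9), and promoters are RefSeq's on GRCm38.p6. The model was tested on simulated data. Sequences and figures used Python 3.11.15, pandas 2.3.3 and matplotlib 3.10.9.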

Additional observations from a re-analysis of the deposited data

How the results depend on the processing

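No called class II difference changed direction under any alternative run, and the number called moved as follows, with smaller moves given as ranges at the end. For CD24 low against Lgr5 (2 called) it was 1 with an offset of 16, 1 with the filter on all 7 arrays, 1 with the replicate block, 1 with the compared groups alone, 0 on Agilent's processed signals, 0 on the deposited series matrix, 0 with the slide as a term, and 1 to 3 when each array was left out in turn. For CD24 medium against Lgr5 (4 called) it was 2 with the slide as a term and 0 to 4 with an array left out, the 0 coming without CD24 medium replicate 2. For CD24 high against Lgr5 (4 called) it was 1 with the slide as a term and 1 to 6 with an array left out. For the Dll1 mean against Lgr5 (3 called) it was 5 on the sample channel alone, 1 with the slide as a term and 3 to 5 with an array left out. For CD24 medium against CD24 high (0 called) it was 1 with the filter on all 7 arrays, 1 without both CD24 low arrays, 1 with the compared groups alone and 0 to 1 with an array left out. For CD24 low against CD24 high (1 called) it was 2 without background subtraction, 0 with an offset of 16, 2 on processed signals, 3 on the sample channel alone, 2 on the series matrix, 0 without a filter, 2 with the filter on all 7 arrays, 0 with the slide as a term, 2 with the replicate block, 0 with the compared groups alone and 0 to 2 with an array left out. The cause of these changes was not tested, apart from fits on the compared groups alone and leave-outs, which hold fewer arrays. Under the alternatives not named above, the counts were 2 to 3 for CD24 low, 3 to 5 for CD24 medium, 3 to 6 for CD24 high and 3 to 4 for the Dll1 mean against Lgr5. CD24 low against CD24 medium stayed at 0 called throughout.

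Same-numbered replicates of the Dll1 groups deviated together with r = 0.48 between CD24 low and CD24 medium, −0.01 between CD24 low and CD24 high and 0.30 between CD24 medium and CD24 high. As this did not hold for every pair, and no label says what a number marks, the numbers were not taken to pair the samples, and whether some share a source was not tested. With the replicate block the calls were 1, 3 and 3 for CD24 low, CD24 medium and CD24 high against Lgr5, 3 for the Dll1 mean, and 0, 2 and 0 for medium against high, low against high and low against medium.

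The scale also moved the class II medians. On processed signals they were −0.65, −1.53 and −1.27 for CD24 low, CD24 medium and CD24 high against Lgr5 and −1.31 for the Dll1 mean, with medians over all genes of 0.00, −0.02, −0.15 and −0.02. Between CD24 levels they were 0.22 for medium against high (−0.21 in the main fit, with the all-gene median at 0.21) and 0.71 for low against high (0.30, all-gene median 0.24). The share of called genes that were higher moved from 59.2% to 44.4% for CD24 high against Lgr5, from 36.1% to 57.7% for medium against high and from 37.9% to 58.4% for low against high on processed signals, and from 55.0% to 38.9%, 54.7% to 42.4% and 56.8% to 39.4% for CD24 low, CD24 medium and the Dll1 mean against Lgr5 on the sample channel alone. Ratios of dim probes are held near a floor by the offset, and the CD24 high arrays held the fewest spots above background.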
